A study of Mus musculus with 7 samples.

Results

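Cathepsins are proteases of the lysosome, and 8 of them (Ctsa, Ctsb, Ctsc, Ctsd, Ctsh, Ctsl, Ctss and Ctsz) were examined together with legumain (Lgmn) and the lysosomal membrane protein Lamp1. These 10 genes were chosen by symbol from the 24341 genes of the deposited table, as a mix of genes enriched in myeloid cells and genes that most cells express. RNA-seq was performed on B-cell precursor (BCP) cells from the spleens of Eμ-Ret hemizygote mice (BALB/c background). The paper describes sorting of preleukemic BCP cells by flow cytometry. For its in vitro work, leukemic spleen cells were in most cases not enriched. It does not state whether the leukemic RNA samples were sorted, and a difference in purity between the groups was not tested. Of the 7 samples, 4 were preleukemic, from young and healthy animals, and 3 were leukemic, from older and moribund animals with overt disease. Every mouse carried the Ret fusion transgene, driven by the immunoglobulin heavy chain enhancer, so that the controls were preleukemic and no transgene-negative sample was compared. Age and disease state differed together between the groups, and their parts in any difference cannot be told apart. The samples were taken as separate mice, as the design text has it, and the labels give neither exact ages nor the sex of each mouse.

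Lysosomal proteases are made as inactive precursors, tagged with mannose 6-phosphate in the Golgi, carried to the endosome by receptors, and activated by cleavage in the acid lumen that the proton pump (V-ATPase) maintains. Most cathepsins are cysteine proteases, while cathepsin D is an aspartic protease and cathepsin A a serine carboxypeptidase. Macrophages, dendritic cells and neutrophils are rich in several of them, and in B cells and other antigen-presenting cells they trim the invariant chain and produce peptides for MHC class II. Many lysosomal genes carry an E-box, CACGTG, near their start, which is the core of the element read by TFEB and its relatives of the MiT/TFE family.

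The promoter windows of the 10 genes were therefore read first. RefSeq windows of 300 bases (250 before the annotated start and 50 after it, GRCm38.p6) were found for 8 of the 10 genes, with 2 starts each for Ctsa and Lgmn, and no window was found for Ctsb or Ctsh. The hexamer CACGTG, which reads the same on both strands, was present in windows of 5 genes, Ctsa, Ctsd, Ctsl, Lgmn and Lamp1, and was not in the windows of Ctsc, Ctss and Ctsz. Over all 32851 windows of this length, 7.15% held it, 0.594% held at least 2 and 0.0244% (8 windows) held at least 4. The stretches around the hexamers that lie before the start follow because they carry what sets these 5 windows apart from the others, with the hexamer in capitals and each stretch read 5′ to 3′ on the strand of the gene.
Lamp1, chr8:13159088-13159160, plus strand: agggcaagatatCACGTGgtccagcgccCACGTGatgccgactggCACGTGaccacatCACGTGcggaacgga
Ctsd, chr7:142388055-142388077, minus strand: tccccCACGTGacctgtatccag
Ctsd, chr7:142387908-142387937, minus strand: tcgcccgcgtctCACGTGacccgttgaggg
Ctsa, second start, chr2:164833749-164833772, plus strand: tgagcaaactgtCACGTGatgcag
Ctsl, chr13:64370739-64370768, minus strand: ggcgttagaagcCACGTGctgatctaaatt
Lgmn, second start, chr12:102439114-102439163, minus strand: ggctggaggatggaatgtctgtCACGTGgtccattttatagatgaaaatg

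Lamp1 held 4 hexamers, whose leading bases lay 61, 45, 28 and 15 bases before the start. In Ctsd they lay 245 and 98 bases before it, in Ctsl 236 bases before it and at the second start of Lgmn 49 bases before it. At the second start of Ctsa 1 lay 12 bases before the start and another began at base 6 after it. Both hexamers of Ctsa and the nearer of Ctsd were part of the longer palindrome TCACGTGA, which 0.974% of all windows held. A GAGGAAGT octamer, searched on both strands as a core that Ets family factors such as PU.1 can bind, was in the windows of Ctss (2 bases before the start) and Ctsc (151 bases before it) and in 3.2% of all windows. By GENCODE M21 coordinates, the stretches of Ctsa, Ctsl and Lgmn and the nearer of Ctsd lie within the annotated gene. They come before the RefSeq start of their window but not before the outer end of the gene. A match of letters is not a binding site, and no binding was measured in these samples.

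**Figure D1:**
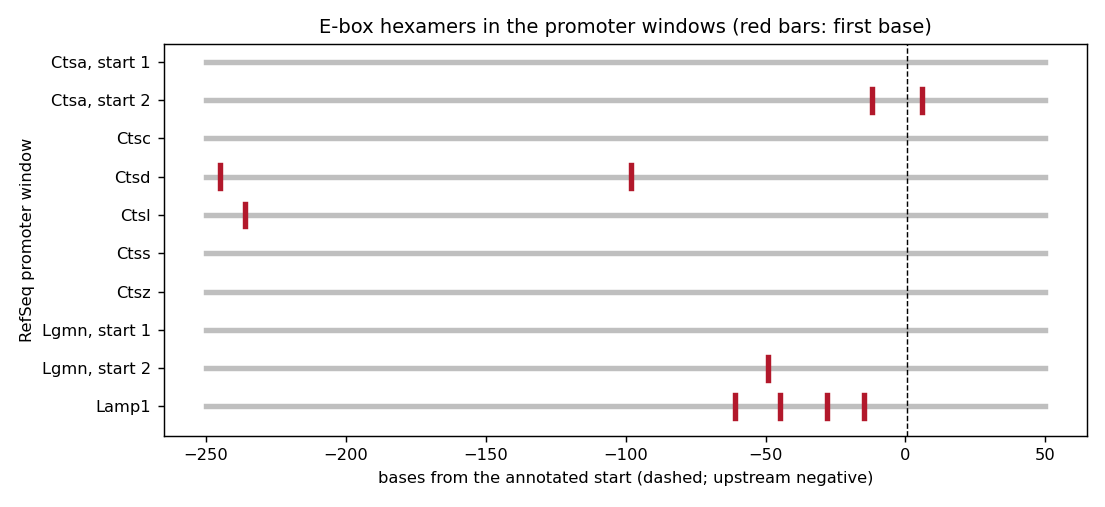
Positions of the CACGTG hexamer (red bars, base at which it begins) in the RefSeq promoter windows (grey, 250 bases before to 50 bases after the annotated start, dashed) of the 8 genes with a window. Lamp1 held 4 hexamers within 61 bases of its start, and the windows of Ctsc, Ctss and Ctsz and the first starts of Ctsa and Lgmn held none.

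Expression is given in FPKM, which scales fragments to transcript length and to depth, so that it is a unit per length in which levels of different genes can be set side by side. Depth, read from the steps of low values, was 13.6 to 16.0 M fragments a sample, at which 1 FPKM over 1500 bases stands for about 20.4 fragments (a counting error of 22.1%) and 100 FPKM for 2040 (2.21%). Genes of the B-cell precursor were high in every sample, with 12 markers summing to 2990 to 4570 FPKM in the leukemic and 5950 to 7380 FPKM in the preleukemic samples. Enpep, which encodes the BP-1 antigen, was at 19.1, 102 and 77.2 FPKM in leukemic replicates 1, 2 and 3 and at 134 to 210 FPKM in the preleukemic samples. Preleukemic replicate 1 stood apart from its group in erythroid markers, which summed to 2240 FPKM there, 173 to 220 FPKM in the other preleukemic samples and 4770 to 23600 FPKM in the leukemic samples.

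In leukemic BCP, Ctsl (4.41-fold in the means), Ctsh (3.8-fold), Lgmn (2.33-fold), Ctsb (2.3-fold), Ctsd (1.71-fold) and Lamp1 (1.31-fold) rose, while the mean of Ctsc was 0.783-fold that of preleukemic BCP without being called. A gene was called where the limma adjusted p, taken over all 10541 genes with a summed FPKM of at least 10, was under 0.05. By this rule 6 of the 10 rose, none fell and 4 were not called (Ctsa, Ctsc, Ctss and Ctsz), where 8.47% of all genes tested rose and 6.26% fell. The values of the groups did not overlap for 9 of the 10, of which 8 were higher and Ctsc lower in leukemic samples, against 32% of all genes tested (14.9% higher and 17.1% lower). The median log2 fold change was 0.63 over the 10 genes and -0.02 over all genes tested. Of the 7 genes listed as enriched in myeloid cells 4 rose, with a median of 1.14, and of the 3 listed as broadly expressed (Ctsa, Ctsd and Lamp1) 2 rose, with a median of 0.38. The genes were picked with results of these data known, so these counts describe them and are no test of the group. The calls varied with the sample left out. Without preleukemic replicate 3 only Ctsb, Ctsh and Ctsl were called, and without preleukemic replicate 4 only Ctsh. Without leukemic replicate 2 the count of the 10 genes that rose was 7 and Ctsc was called lower. Over all genes tested 893 rose and 660 fell as reported. In these 3 fits, in the same order, 215 rose and 75 fell, 113 rose and 43 fell, and 830 rose and 736 fell.

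**Figure D2:**
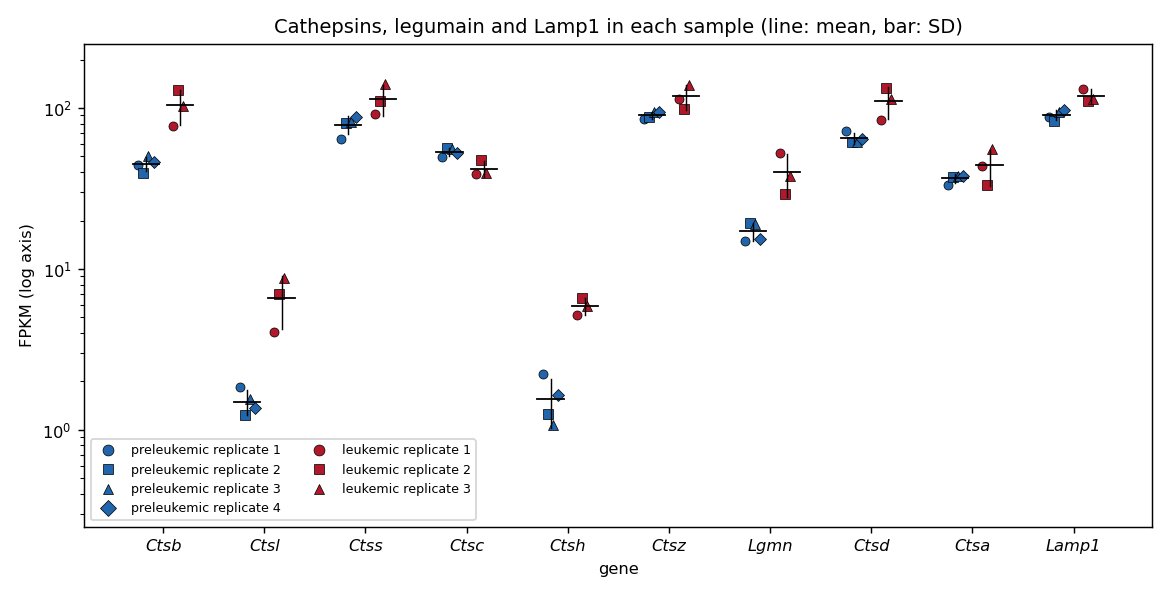
FPKM (log axis) of each of the 10 genes in each sample, with preleukemic replicates in blue and leukemic replicates in red, lines at group means and bars of 1 SD (n = 4 and n = 3). The leukemic points of Ctsl (4.05 to 8.79) and Ctsh (5.21 to 6.61) lie farthest above the preleukemic ones, Ctsa overlaps, and Ctsc is the gene whose leukemic points all lie below.

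Among the cysteine endopeptidases, Ctsb and Ctsl rose. Ctsb, which cleaves within proteins and also removes dipeptides from their carboxyl end, was at 77.7, 130 and 103 FPKM in leukemic replicates 1, 2 and 3 and at 44.5, 39.7, 50.3 and 45.9 FPKM in preleukemic replicates 1, 2, 3 and 4. Every leukemic sample lay above every preleukemic sample, and leukemic replicate 2 was the highest. The means were 104 ± 25.9 FPKM (SD, n = 3) and 45.1 ± 4.34 FPKM (SD, n = 4), 2.3-fold apart. The log2 fold change, on the scale of log2(FPKM + 1) as all that follow, was 1.16 (SE 0.17, 95% CI 0.76 to 1.56, limma adjusted p = 0.0123). The call was lost without preleukemic replicate 4 (limma adjusted p = 0.0512) and kept in the other 6 fits that left out 1 sample. Its exons share 774 bases with Fdft1 on the opposite strand, and the deposited locus of Ctsb, which starts at 63122461 on chromosome 14, runs to 63179578, past the annotated end of the gene at 63145923.

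Ctsl, an endopeptidase that also shapes the peptide supply of the thymus, was at 4.05, 7.02 and 8.79 FPKM in the leukemic and at 1.84, 1.24, 1.55 and 1.37 FPKM in the preleukemic replicates. The lowest leukemic sample was 2.2-fold above the highest preleukemic one. It had the largest fold change of the 10 genes, with means of 6.62 ± 2.4 and 1.5 ± 0.26 FPKM, 4.41-fold apart, and a log2 fold change of 1.56 (SE 0.24, 95% CI 1.0 to 2.12, limma adjusted p = 0.0132). With a pseudocount of 0.01 in place of 1 the log2 fold change was 2.08. Without preleukemic replicate 4 the limma adjusted p was 0.0532. Its exons share 1742 bases with an antisense gene (Gm47123) and 395 with a processed pseudogene on its own strand (Gm49230). Reads of Gm47123 in the shared bases cannot be told apart from those of Ctsl where the counting did not use strand. In the bases shared with Gm49230, neither strand nor unique placement separates reads of the pseudogene from those of Ctsl.

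Ctss, the endopeptidase that completes the trimming of the invariant chain in B cells and dendritic cells, was at 91.6, 110 and 141 FPKM in the leukemic and at 64.6, 80.8, 81.6 and 87.9 FPKM in the preleukemic replicates. The groups did not overlap, but the lowest leukemic value was 1.04-fold the highest preleukemic one. The log2 fold change was 0.52 (SE 0.16, 95% CI 0.13 to 0.90) and was not called (limma adjusted p = 0.0737), except without leukemic replicate 1 (0.66, limma adjusted p = 0.0351).

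The exopeptidases of the family split. Ctsh, mainly an aminopeptidase, was at 5.21, 6.61 and 5.9 FPKM in the leukemic and at 2.24, 1.25, 1.07 and 1.65 FPKM in the preleukemic replicates. All leukemic values were at least 2.33-fold the highest preleukemic value, which was that of preleukemic replicate 1. The means of 5.91 ± 0.698 and 1.55 ± 0.517 FPKM lay 3.8-fold apart, with a log2 fold change of 1.45 (SE 0.19, 95% CI 1.0 to 1.90, limma adjusted p = 0.01). Ctsh was called in all 7 fits that left out 1 sample.

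Ctsc, dipeptidyl peptidase I, which activates the granule serine proteases of neutrophils and cytotoxic lymphocytes, was the exception. It was at 39, 47.3 and 39.4 FPKM in the leukemic and at 49.4, 56.2, 55.8 and 52.5 FPKM in the preleukemic replicates, so that every leukemic value lay below every preleukemic one. The log2 fold change was -0.35 (SE 0.10, 95% CI -0.57 to -0.12) with a limma adjusted p of 0.0505, just past the threshold. It was called lower without leukemic replicate 2 (-0.44, limma adjusted p = 0.0284), after quantile normalization (-0.39, 0.0279) and after scaling to the same total (-0.51, 0.0121).

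Ctsz, a carboxypeptidase also called cathepsin X, was at 114, 98.7 and 140 FPKM in the leukemic and at 85.1, 88.4, 94 and 94.6 FPKM in the preleukemic replicates. The leukemic values were above the preleukemic ones, by 1.04-fold for the nearest pair. Its exons share 10 bases with Nelfcd on the opposite strand. As for Ctsb, the deposited locus (174415803 to 174438992 on chromosome 2) reaches beyond the annotated gene, here past 174427493 on the minus strand. The log2 fold change of 0.36 (SE 0.12, 95% CI 0.08 to 0.65) was not called (limma adjusted p = 0.087), except without leukemic replicate 2 (0.48, limma adjusted p = 0.0358).

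Lgmn, the asparaginyl endopeptidase, belongs to another family of cysteine proteases and cleaves several cathepsins further after they have matured. It was at 52.6, 29.2 and 37.9 FPKM in the leukemic and at 15, 19.2, 19 and 15.4 FPKM in the preleukemic replicates. The groups did not overlap, and leukemic replicate 1 was the highest sample, unlike for Ctsb, Ctsl and Ctsh, for which it was the lowest leukemic one. With means of 39.9 ± 11.8 and 17.1 ± 2.27 FPKM, 2.33-fold apart, the log2 fold change was 1.14 (SE 0.20, 95% CI 0.68 to 1.60, limma adjusted p = 0.0167). The call was lost without preleukemic replicate 3 (limma adjusted p = 0.0509) and without preleukemic replicate 4 (0.0619).

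Of the broadly expressed genes, Ctsd and Lamp1 rose and Ctsa was not called. Ctsd, the aspartic protease of the lysosome, was at 84.5, 133 and 114 FPKM in the leukemic and at 72.1, 61.3, 61.5 and 63.9 FPKM in the preleukemic replicates. Leukemic replicate 1 was 1.17-fold above the highest preleukemic sample and the other leukemic samples were farther above. Its means of 110 ± 24.5 and 64.7 ± 5.07 FPKM lay 1.71-fold apart, with a log2 fold change of 0.74 (SE 0.15, 95% CI 0.38 to 1.10, limma adjusted p = 0.0242). The call was lost without leukemic replicate 3 (limma adjusted p = 0.0527), preleukemic replicate 2 (0.0664), preleukemic replicate 3 (0.0721) or preleukemic replicate 4 (0.0772). Gm49369, a gene on the same strand, shares 808 exonic bases with it.

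Ctsa, the carboxypeptidase that protects beta-galactosidase and neuraminidase from degradation, was at 43.5, 33.3 and 55.3 FPKM in the leukemic and at 33.1, 37.5, 38 and 37.7 FPKM in the preleukemic replicates. Leukemic replicate 2 lay within the preleukemic range and the other leukemic samples above it. The log2 fold change was 0.23 (SE 0.16, 95% CI -0.14 to 0.61, limma adjusted p = 0.336), and Ctsa was called in none of 17 alternative settings. Its exons overlap Neurl2 (324 bases) and Pltp (495 bases) on the opposite strand. As for Ctsb, the deposited locus (164830729 to 164857708 on chromosome 2) runs past the annotated end of the gene at 164841032.

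Lamp1, a heavily glycosylated protein of the lysosomal membrane and the only member that is no protease, was at 132, 111 and 113 FPKM in the leukemic and at 88.5, 83, 94.7 and 97.1 FPKM in the preleukemic replicates. The groups did not overlap, by 1.14-fold for the nearest pair. It rose by 0.38 on the log2 scale (SE 0.09, 95% CI 0.16 to 0.60, limma adjusted p = 0.0377). This was the least stable of the calls, kept in 7 of 17 alternative settings and, among fits that left out 1 sample, only without leukemic replicate 2 (limma adjusted p = 0.0441), with adjusted p of 0.0532 to 0.0866 without any other sample. After scaling to the same total it was 0.22 (limma adjusted p = 0.123). Grtp1, on the opposite strand, shares 249 exonic bases with it. Its change was the smallest called among the 10 genes. Whether the hexamers of the windows bear on any change was not tested, and Ctsb and Ctsh, which were called, had no window.

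**Figure D3:**
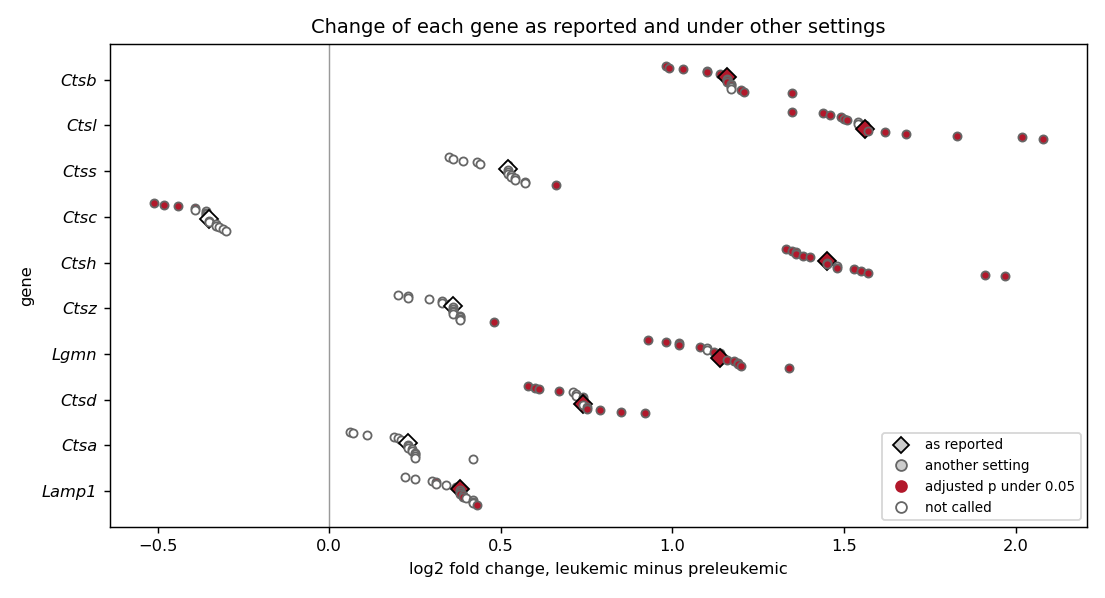
Log2 fold change (leukemic minus preleukemic) of each of the 10 genes as reported (diamonds) and under up to 17 other settings (circles), filled where the limma adjusted p was under 0.05. All settings kept the sign of each gene, from -0.51 to -0.30 for Ctsc and from 1.35 to 2.08 for Ctsl.

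The order of the levels changed little between the groups at the top and bottom and more in the middle. In preleukemic samples Lamp1 (mean 90.8 FPKM), Ctsz (90.5), Ctss (78.7) and Ctsd (64.7) led, and the ranges of neighbours in this order overlapped. Ctsc (53.5) and Ctsb (45.1) followed with overlapping ranges, then Ctsa (36.6) and Lgmn (17.1), each clear of its neighbours, and Ctsh (1.55) and Ctsl (1.5) at the bottom, not told apart by their ranges. In leukemic samples Ctsb (mean 104 FPKM) joined Lamp1 (119), Ctsz (118), Ctss (114) and Ctsd (110) in the leading group, in which no neighbours were clear of each other. Ctsa (44), Ctsc (41.9) and Lgmn (39.9) formed a middle group with overlapping ranges, and Ctsl (6.62) and Ctsh (5.91) stayed at the bottom. Ctsc thus stood above Ctsb in all 4 preleukemic samples and below it in all 3 leukemic ones. By rank among all 24341 genes, Lamp1 was at or above 97.2% of genes in leukemic samples and Ctsh at or above 65.3%. These ranks count 7665 genes that were at the floor of 0.01 FPKM in every sample.

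Summed over the 10 genes, expression was 644, 706 and 759 FPKM in the leukemic and 456, 469, 497 and 498 FPKM in the preleukemic replicates, 1.46-fold higher in the means (703 ± 57.5 against 480 ± 20.9). Within this sum the share of Ctsb was 14.7 ± 3.27% in leukemic and 9.39 ± 0.71% in preleukemic samples, while that of Ctsc was 5.98 ± 0.753% and 11.1 ± 0.635%. The share of Ctss, at 16.1 ± 2.19% and 16.4 ± 1.56%, differed by less than the spread between replicates. Lgmn made up 8.16% of the sum in leukemic replicate 1 and 4.14% and 4.99% in leukemic replicates 2 and 3. The leukemic samples thus differed in their mixture of proteases: replicate 2 was the highest of the 3 for Ctsb, Ctsc, Ctsd and Ctsh, replicate 3 for Ctsa, Ctsl, Ctss and Ctsz, and replicate 1 for Lgmn and Lamp1.

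Summed markers of macrophages, neutrophils, dendritic cells and erythroid cells were also higher in leukemic samples. Macrophage markers (17 genes, none at the floor of 0.01 FPKM in all samples) summed to 172, 417 and 274 FPKM in the leukemic and to 92, 74.5, 39.2 and 43.2 FPKM in the preleukemic replicates. Of the 12 tested 8 rose and none fell, where 8.47% of all genes tested rose and 6.26% fell. Csf1r, the receptor that macrophages need for survival, was at 11.3, 22.6 and 15.2 FPKM in leukemic and at 1.1 to 2.03 FPKM in preleukemic samples (log2 fold change 2.74, limma adjusted p = 0.00514). Lyz2, lysozyme of macrophages and granulocytes, was at 115 to 163 FPKM and 21.6 to 70.1 FPKM (log2 fold change 1.80), and C1qa, a complement subunit made by macrophages, at 6.17 to 43.1 FPKM and 1.9 to 3.66 FPKM (limma adjusted p = 0.0402). Neutrophil markers (12 genes) summed to 1460 to 1820 FPKM in the leukemic and to 893, 591, 154 and 238 FPKM in the preleukemic replicates, and 5 of 12 rose. S100a8, a calcium-binding protein of neutrophils, was at 649 to 856 FPKM and 71.3 to 382 FPKM and rose (limma adjusted p = 0.041), and its partner S100a9, at 517 to 613 FPKM and 49.8 to 313 FPKM, was not called (0.0527). Dendritic cell markers (9 genes) were low in both groups, and none passed the filter. Their sums were 6.07 to 10.5 FPKM in the leukemic and 0.771 to 2.4 FPKM in the preleukemic samples, 5.79-fold apart in the means. Itgax was at 1.97 to 3.63 FPKM and 0.151 to 0.376 FPKM and Flt3 at 1.29 to 2.36 FPKM and 0.278 to 0.648 FPKM. T and cytotoxic cell markers summed to 11.6, 68.8 and 22.5 FPKM in the leukemic and to 12.3 to 16.8 FPKM in the preleukemic samples, and none of 7 was called (median 0.36). Of 6 mature B and plasma cell markers 1 rose (median 0.40), Jchain, the joining chain of secreted antibody, at 81.5 to 143 FPKM and 18.6 to 22.2 FPKM (2.37, limma adjusted p = 0.00426). In fits that left out 1 sample, the calls of Lyz2, C1qa and S100a8 were kept in 3, 2 and 1 of 7. That of Jchain was kept in all 7.

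All 10 erythroid markers rose, with a median log2 fold change of 4.90. The globin gene Hbb-b1 was at 3290, 17300 and 8070 FPKM in the leukemic replicates, 1580 FPKM in preleukemic replicate 1 and 129 to 168 FPKM in the other preleukemic samples. Of the B-cell precursor markers 4 of 12 fell and none rose (median -0.74). Igll1, a surrogate light chain gene, fell from 1490 ± 129 to 637 ± 282 FPKM (-1.32, limma adjusted p = 0.0244), and Cd79a, a signalling chain of the B-cell receptor, was at 1050 ± 166 and 1470 ± 179 FPKM (-0.48, 0.0567). The calls of Hbb-b1 and Igll1 were each kept in 4 of 7 fits that left out 1 sample.

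In bulk RNA, fewer cells of a type and less RNA per cell cannot be told apart. The part of these other cells in the values of the 10 genes was not tested. Over the 3 leukemic samples the sums of macrophage and of erythroid markers had the order replicate 2, replicate 3, replicate 1. This was also the order of Ctsb, Ctsd and Ctsh and the reverse of that of Lgmn and Lamp1. B-cell precursor markers (4570, 3540 and 2990 FPKM in replicates 2, 3 and 1) shared the order of the macrophage markers. So did dendritic cell markers and T and cytotoxic cell markers, so this order does not tell these lists apart. The sum of neutrophil markers had the order replicate 3, replicate 1, replicate 2, which Ctsa and Ctsz shared. Within the preleukemic group macrophage markers summed to 92 FPKM in replicate 1 and 39.2 FPKM in replicate 3, and neutrophil markers to 893 and 154 FPKM. In the same samples Ctsb was at 44.5 and 50.3 FPKM, Lgmn at 15 and 19 FPKM, Ctsl at 1.84 and 1.55 FPKM and Ctsh at 2.24 and 1.07 FPKM.

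**Figure D4:**
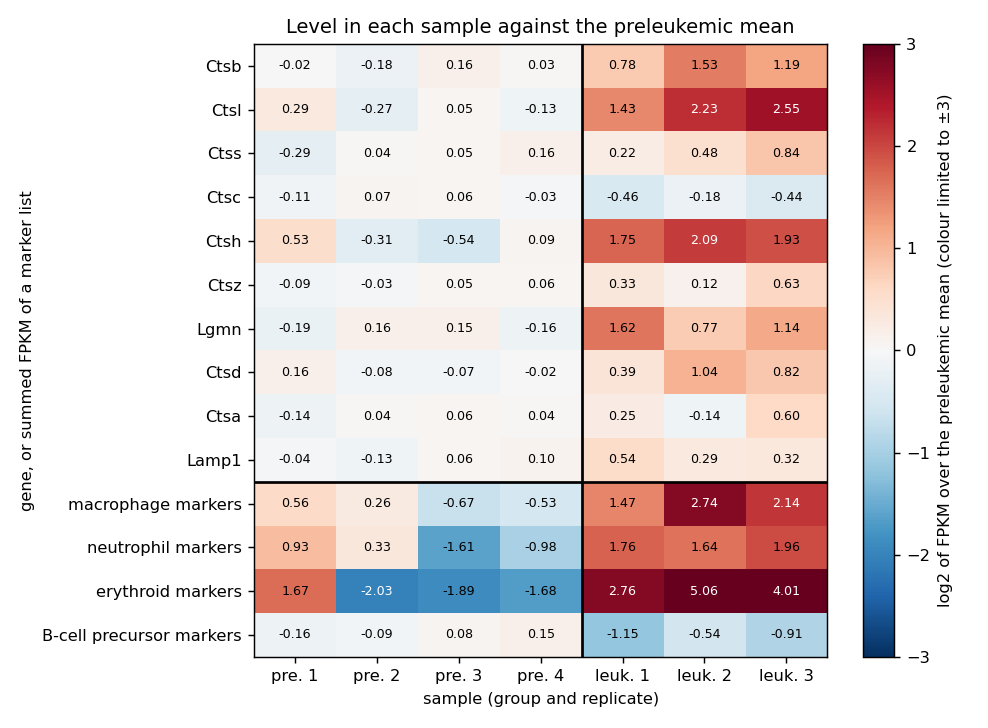
Log2 of the FPKM of each gene, or of the summed FPKM of a marker list, over the preleukemic mean in each sample (colour limited to 3 either way, values printed). Ctsb, Ctsl, Ctsh and Lgmn are above it in all 3 leukemic samples, as are macrophage (1.47 to 2.74), neutrophil (1.64 to 1.96) and erythroid markers (2.76 to 5.06), and B-cell precursor markers are below it (-1.15 to -0.54).

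The rest of the lysosome did not move as a block. Of 107 other lysosomal genes listed, 97 were tested, of which 13 rose and 7 fell, with a median log2 fold change of 0.04 and 20.6% called, beside 14.7% of all genes tested. Without preleukemic replicate 4 these counts were 3 and 0, and after scaling to the same total they were 11 and 17. Promoter windows were found for 75 of the 97, and CACGTG was present in 19 of them (25.3%), of which 1 rose and 1 fell (median 0.00), while 9 rose and 5 fell of the 56 without it (median 0.05).

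Other cathepsins went both ways. Ctse, an aspartic protease of endosomes, was more abundant than any of the 10 genes, at 191, 391 and 301 FPKM in the leukemic and 234, 189, 232 and 255 FPKM in the preleukemic replicates, with overlapping groups (log2 fold change 0.32, limma adjusted p = 0.358). Ctso, a cysteine protease, fell from 17.6 ± 0.596 to 12.9 ± 1.75 FPKM (log2 fold change -0.42, limma adjusted p = 0.0331), a call kept in 1 of 7 fits that left out 1 sample. Ctsg, a serine protease of neutrophil granules that is no lysosomal cysteine cathepsin despite its name, rose from 1.02 ± 1.26 to 5.02 ± 0.705 FPKM (1.75, 0.0352), and was at 2.87 FPKM in preleukemic replicate 1 and at 0.0911 to 0.77 FPKM in the other preleukemic samples. Ctsw, typical of cytotoxic lymphocytes, rose from 0.663 ± 0.19 to 2.66 ± 0.761 FPKM (1.12, 0.0226). These calls were kept in 1 of 7 and 2 of 5 such fits. Of the inhibitors, 2 of 12 rose and none fell (median 0.78). Cystatin C (Cst3) was the most abundant, at 513 ± 65.2 and 425 ± 43.6 FPKM (0.27, limma adjusted p = 0.157), and cystatin B (Cstb) was at 64.3 ± 2.4 and 65.1 ± 4.38 FPKM (-0.02, 0.896). Serpinb6a, an intracellular serpin, rose from 11.3 ± 2.06 to 21.2 ± 7.06 FPKM (0.81, 0.0467), and the stefin Stfa2 from 0.307 ± 0.421 to 14.5 ± 14.6 FPKM (3.01, 0.0394), each kept in 1 of 7 such fits. Stfa2 has close copies among which reads can be split, so its value is uncertain. The 9 cathepsins known from the placenta were at the floor of 0.01 FPKM in all samples.

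Of the sorting and tagging genes 11.1% were called and of the V-ATPase genes also 11.1%, beside 14.7% of all genes tested. Gnptg, a subunit of the enzyme that adds the mannose 6-phosphate tag, rose from 13.6 ± 2.21 to 26.2 ± 3.09 FPKM (log2 fold change 0.91, limma adjusted p = 0.0128) and was the only one of 9 sorting and tagging genes called, in all fits that left out 1 sample but that without preleukemic replicate 4. The receptor M6pr was at 82.3 ± 4.26 and 73.1 ± 3.49 FPKM (0.17, 0.156) and the adaptor Gga2 at 81.3 ± 21.3 and 116 ± 6.36 FPKM (-0.54, 0.0799). Of 18 V-ATPase genes tested 2 rose, Atp6v0a1 from 4.33 ± 0.44 to 11.4 ± 2.19 FPKM (1.20, 0.0087) and Atp6v0c from 8.91 ± 0.836 to 11.8 ± 0.363 FPKM (0.37, 0.0405). The call of Atp6v0a1 was kept in all 7 fits that left out 1 sample and that of Atp6v0c in none. The most abundant subunits, Atp6v1f (-0.02, 0.9) and Atp6v0e (0.46, 0.0907), were not called. Of the MiT/TFE factors, Tfe3 (27.3 ± 1.09 and 30.5 ± 1.19 FPKM) and Tfeb (27.6 ± 2.98 and 23.6 ± 3.52 FPKM) passed the filter and neither was called (-0.16, 0.167 and 0.22, 0.284).

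Of the lysosomal membrane proteins 15.4% were called and of the glycosidases, sulfatases and lipid enzymes 27.3%, beside 14.7% of all genes tested. Cd63, a tetraspanin of late endosomes, rose from 1.02 ± 0.669 to 6.02 ± 1.03 FPKM (log2 fold change 1.85, limma adjusted p = 0.0128, kept in all 7 fits that left out 1 sample), and Cd68, a macrophage relative of Lamp1, from 3.07 ± 0.82 to 11.8 ± 5.99 FPKM (1.54, 0.0351, kept in 1 of 7). These were the only 2 of 13 membrane proteins called, and the abundant Laptm5 (-0.10, 0.849) and Laptm4a (0.07, 0.64) were not. Of 33 glycosidases, sulfatases and lipid enzymes tested, 3 rose and 6 fell (median -0.08). Dnase2a, the acid nuclease that digests engulfed DNA, rose from 4.88 ± 0.674 to 12.9 ± 2.15 FPKM (1.24, 0.00819, kept in all 7), and Ppt1, which removes palmitate from proteins, fell from 70.5 ± 12.7 to 35.3 ± 3.48 FPKM (-0.97, 0.0132, lost without preleukemic replicate 4). The other falls were Sgsh, Idua, Smpd1, Aga and Manba. Psap, the precursor of the saposins, was at 266 ± 42 and 269 ± 26 FPKM (-0.02, 0.905), and Npc2, a cholesterol carrier, at 59.3 ± 19.6 and 64.6 ± 7.79 FPKM (-0.16, 0.61). Among other peptidases and related enzymes Scpep1 rose (0.39, 0.0365, kept in none of 7), and Ifi30, the thiol reductase of the antigen-processing compartment, was at 292 ± 56.1 and 289 ± 30.6 FPKM (0.00, 0.988).

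**Figure D5:**
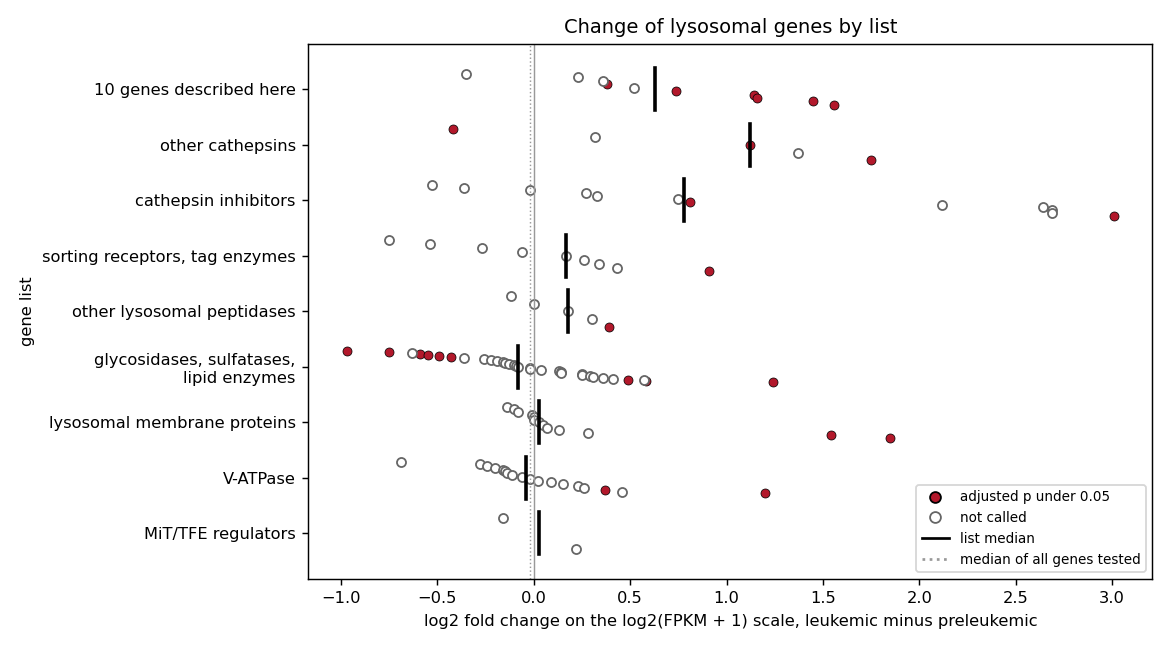
Log2 fold change (leukemic minus preleukemic, log2(FPKM + 1) scale) of each tested gene of the lysosomal lists, filled where the limma adjusted p was under 0.05, with list medians (black) and the median of all genes tested (dotted). The 10 genes described have a median of 0.63, other cathepsins 1.12, inhibitors 0.78, and the enzyme, membrane and V-ATPase lists -0.08, 0.03 and -0.04.

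The MHC class II partners of these proteases varied among the leukemic samples. Cd74, the invariant chain that Ctss and Ctsl cleave, was at 50.3, 134 and 214 FPKM in the leukemic and at 33.8, 34, 39.5 and 48.7 FPKM in the preleukemic replicates. The groups did not overlap, and the log2 fold change of 1.53 was not called (limma adjusted p = 0.0571). H2-DMa, a chain of the molecule that loads peptides, was at 5.04, 7.11 and 13.9 FPKM against 2.51 to 2.96 FPKM and rose (1.25, limma adjusted p = 0.0298), a call kept in 3 of 7 fits that left out 1 sample. Cd74 and H2-DMa shared the order of Ctss and Ctsl over the leukemic samples, lowest in replicate 1 and highest in replicate 3.

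Outside all the lysosomal, MHC class II and marker lists, the genes closest in pattern to each of the 10 were sought. Closeness was the root mean square (RMS) difference of log2(FPKM + 1) over the 7 samples, after centring on the mean of all samples. Genes of those lists were left out, so other lysosomal genes or markers may lie closer than the genes named. Lamp1 was nearest to Rpl7 (RMS 0.0283), which encodes a ribosomal protein, and Rab11b (0.054) was also near. Ctsc was nearest to Fem1c (0.037), Pde4dip (0.0391) and Cdc73 (0.0433). Spi1, which encodes PU.1, a transcription factor of myeloid and B cells, was among the nearest 3 for Ctsz (0.0604) and Ctsa (0.0789). Ctss was nearest to Tmem173 (0.0558), the cytosolic DNA sensor adaptor STING, and Ctsd to Irak2 (0.0413), Stradb (0.0759) and Fbxo7 (0.0761). Ctsb was nearest to Cd82 (0.099) and Coprs (0.121). Ctsl was nearest to Stx11 (0.0856) and Cd44 (0.18), Ctsh to Arhgap23 (0.103) and Siglece (0.143), and Lgmn to Cib2 (0.106) and Kank3 (0.159). Among the 10 themselves Ctsa and Ctsz were the closest pair (0.0938), and Lgmn was 0.435 from its nearest, Lamp1. The measure depends on the size of a gene's change, so that genes that changed little are closer to each other.

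The 10 genes lie on 8 chromosomes, with coordinates from GENCODE M21 on GRCm38, the same build as the mm10 named in the labels. Ctsa is at chr2:164832873-164841032, Ctsz at chr2:174427493-174439039, Ctsc at chr7:88278085-88310888, Ctsd at chr7:142375911-142388038 and Lamp1 at chr8:13159161-13175338. Ctsb is at chr14:63122462-63145923, Ctsl at chr13:64359337-64370890, Ctss at chr3:95526786-95556403, Ctsh at chr9:90054152-90076089 and Lgmn at chr12:102394084-102439813. Chromosomes differed in their overall shift. Over genes with a mean of at least 5 FPKM the median log2 fold change was 0.23 on chromosome 9, where 77.2% of 495 genes were above 0 and where Ctsh lies, and 0.35 on chromosome 17, which holds none of the 10. On the chromosomes of the other 9 genes it ranged from -0.08 (chromosome 12) to -0.04 (chromosomes 3, 13 and 14). The log2 fold change of Ctsh was 1.45, and the part of the shift of its chromosome in this value was not tested.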

How the data were processed

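RNA-seq libraries of poly(A)-selected, stranded type were made from splenic BCP cells of 4 preleukemic and 3 leukemic mice. The authors deposited 1 table of FPKM values per gene and sample, with a floor of 0.01. The submitters' processing notes name STAR 2.5.0b, bedtools 2.17.0, Cufflinks 2.2.1, Bowtie, DESeq2 and mm10, without their roles, and the strand setting of the counting is not given in the sources used here. FPKM is already scaled for length and depth and is no count, so the count model of the study's methods was replaced by limma. Its filter (a sum of at least 10, here of FPKM) and threshold (0.05) were taken over.

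The groups were compared by limma (version 3.58.1, R 4.3.3; lmFit and eBayes with a trend, no covariates, all 7 samples) after taking log2 of FPKM plus a pseudocount of 1, with Benjamini-Hochberg adjustment over 10541 genes. The pseudocount makes fold changes of low genes too small. The fit was tested on simulated data. Python 3.11.15 (numpy 2.4.6, pandas 2.3.3, matplotlib 3.10.9) served for levels, likeness, promoter matches and figures. Promoter sequences are from RefSeq (GRCm38.p6) and coordinates and overlaps from GENCODE M21. Depth was read from the whole multiples in which low FPKM values step, of which 76.5 to 82.2% were whole within 0.1. The intervals of counting error cover counting alone. Above the floor, any 2 samples had at most 1 value in common, and all 7 were counted as libraries of their own.

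The genes, the lists and the tests were chosen with earlier results of these data known. Besides the 10 genes, at most 4 were named from each lysosomal list. These were the 2 with the highest mean FPKM and the 2 with the largest change among those called. From each marker list the 2 with the highest mean FPKM were named. For each of the 10 genes, those outside all lists with the most similar pattern were named. Some genes that these rules would name are not reported here, though they stay in the counts. Beside these, Ctse was compared with the 10 genes, and Csf1r, Enpep and the other enzymes that fell were named after their values were seen. Alternatives were other pseudocounts (0.1 and 0.01), no filter or one of 70, quantile normalization, scaling to the same total with and without erythroid markers, no intensity trend, sample weights, a replicate block and leaving out each sample in turn.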

Additional observations from a re-analysis of the deposited data

Results flagged for a closer look

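In a group of 4 samples, a value was picked out where its gap to the nearest other sample, over the range of the group, was above Dixon's 95% critical value. This was tested for 59 sets of preleukemic values, of which chance picks about 1 in 20, and picked 6. Among the 10 genes it was Ctsa, whose 33.1 FPKM in preleukemic replicate 1 lay below 37.5 to 38 FPKM in the other preleukemic samples. Without that sample the log2 fold change of Ctsa was 0.19. Gnptg was at 16.8 FPKM in preleukemic replicate 3 and at 12.1 to 12.7 FPKM in the others of its group. H2-DMb2 was at 2.34 FPKM in preleukemic replicate 2 and at 3.69 to 3.78 FPKM in the others. In preleukemic replicate 1, Hbb-b1 was at 1580 FPKM, Hba-a1 at 401 FPKM and the summed erythroid markers at 2240 FPKM, above the other preleukemic samples.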

How the results depend on the processing

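All 10 genes kept the sign of their change in every setting that tested them. The count of those that rose was 6 as reported, 0 with the replicate block and 1 to 7 when 1 sample was left out. It was 1 without preleukemic replicate 4. The 7 without leukemic replicate 2 include Ctsz, and without leukemic replicate 1 Ctss was called and Lamp1 was not. Ctsh and Ctsl were not tested with the filter of 70. None was called lower as reported, and 1, Ctsc, with a pseudocount of 0.01, after quantile normalization and after scaling to the same total with or without erythroid markers, and 0 to 1 when 1 sample was left out. The other lysosomal genes that rose were 13 as reported, 8 without a filter, 5 with the filter of 70, 0 with the replicate block and 3 to 14 when 1 sample was left out. Those that fell were 7, 3 with the filter of 70, 17 and 15 after scaling to the same total with and without erythroid markers, 0 with the block and 0 to 7 when 1 sample was left out. Over all genes 893 rose, 548 with the filter of 70, 0 with the block and 113 to 849 when 1 sample was left out, and 660 fell, 403 with the filter of 70, 2236 and 1853 after scaling to the same total with and without erythroid markers, 0 with the block and 43 to 736 when 1 sample was left out. The filter tests fewer genes and leaving out a sample uses fewer samples, and other causes were not tested.

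The shared replicate numbers name samples only. Same-numbered samples correlated at 0.0294, 0.0502 and -0.0925 in their deviations from the group means, and not every sample correlated best with its own number.

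Scaling to the same total moved the median of all genes by -0.15 and without erythroid markers by -0.12, and the share of calls that rose was 57.5% as reported, 45.4% after quantile normalization, 23.4% and 28% after these scalings. Relative to the median of all genes, Lamp1 was 0.40 as reported and 0.39 after scaling to the same total, and Ctsc -0.33 and -0.34.

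Signs turned for genes near 0 that were not called. Cstb was 0.02 with the replicate block, and 0.01 and 0.02 without leukemic replicate 3 and preleukemic replicate 4. Ifi30 was -0.13 after quantile normalization, -0.16 and -0.13 after scaling to the same total with and without erythroid markers, -0.01 with the block, -0.06 with sample weights and -0.12 to 0.16 when 1 sample was left out. Psap was 0.03 with the block and up to 0.04 when 1 sample was left out, and Npc2 was -0.41 to 0.03 when 1 sample was left out. Laptm5 was 0.03 with the block and -0.31 to 0.24 when 1 sample was left out. Laptm4a was -0.10 and -0.06 after the scalings to the same total and -0.01 to 0.13 when 1 sample was left out. Atp6v1f was 0.03 with the block, 0.01 with sample weights, and 0.10 and 0.03 without leukemic replicate 1 and preleukemic replicate 4. The cause was not tested. With 3 and 4 samples a group, 1 FPKM over 1500 bases rests on about 20.4 fragments, so counting error is largest for Ctsh and Ctsl.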

Other observations

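The stefins, inhibitors of cysteine cathepsins that lie in a cluster of close copies, varied widely among the leukemic samples. Stfa2 was at 11.4, 1.7 and 30.4 FPKM in leukemic replicates 1, 2 and 3 and at 0.01 to 0.903 FPKM in the preleukemic samples, and Stfa2l1 at 7.54, 2.06 and 34.4 FPKM and 0.01 to 0.96 FPKM. Stfa3 was at 6.44, 0.595 and 27.3 FPKM in the leukemic samples and at most 0.316 FPKM in the preleukemic samples. BC100530 was at 14.3, 1.31 and 37.4 FPKM and at 0.01 to 3.07 FPKM, with overlapping groups. All 4 were highest in leukemic replicate 3 and lowest of the leukemic samples in replicate 2, and among these Stfa2 was called. They were chosen after their values were seen, and reads may be split among the copies.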
